A study of Mus musculus with 29 samples.

Results

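Peaks of 24 transcription factor constructs were placed on 10 genes of the circadian clock: Per1, Per2, Per3, Cry1, Cry2, Dbp, Tef, Nr1d1, Nr1d2 and Bhlhe40. The genes were chosen by name, as members of the clock's repressor loops and as targets or producers of D-box binding proteins, out of 21938 protein-coding genes of the mouse genome. The window of a gene was its body plus 20 kb on each side on mm10. HLF-HA, a D-box binding factor, had a peak in the windows of 6 of the 10 genes (Per1, Per2, Tef, Nr1d1, Nr1d2 and Bhlhe40), against 9.48% of all protein-coding genes. MAX-HA, an E-box binding factor, had a peak at 4 of the 10 (Per1, Cry2, Nr1d1 and Bhlhe40), against 14.5%. Per3, Cry1 and Dbp had a peak of neither. Of the 10 HLF-HA peaks in these windows, 6 held the canonical E-box CACGTG, against 4.4% of all HLF-HA peaks. A D-box was in 4 of the 10, against 8.84%. Of the 5 MAX-HA peaks, 1 held CACGTG, against 4.3% of all MAX-HA peaks.

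The peaks come from ChIP-seq with an anti-HA antibody in NIH-3T3 cells, a mouse embryonic fibroblast line. All cells carried a factor fused to HA tags at its C terminus, delivered by a lentiviral vector and switched on overnight with 500 ng/ml doxycycline, and were fixed with 1% formaldehyde. The constructs were 21 wild-type factors, the FOXA1 mutants RR and SW, and OCT4-HA expressed together with SOX2-YPET, a fusion to a yellow fluorescent protein. HLF-HA and MAX-HA were among 20 constructs with 1 peak list each, and SOX2-HA, OCT4-HA, FOXA1-HA and BHLHB8-HA had 2, while the input chromatin has no list of its own. Every cell line therefore overexpressed its factor, and the lists say nothing of the level of the endogenous clock proteins or of the clock's phase, for which the labels give no time. The lists give positions only, so the depth behind each is unknown. A list's length ranged from 52 to 61991 peaks, and its part in the counts below was not tested. HLF-HA and MAX-HA have no replicate error, and no test was run on the members.

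The mammalian clock is a transcriptional feedback loop. CLOCK and BMAL1, bHLH proteins, bind E-boxes and activate the Per and Cry genes, whose products return to the nucleus and inhibit them. Further loops run through the nuclear receptors REV-ERB alpha and beta, encoded by Nr1d1 and Nr1d2, through BHLHE40 (DEC1), an E-box binding repressor, and through the PAR-bZIP activators DBP, TEF and HLF, which bind D-boxes and are opposed there by NFIL3. Fibroblast lines, NIH-3T3 included, carry a working clock that serum or glucocorticoids can synchronise.

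The sequences that carry the result are those under the HLF-HA peaks, read 5′ to 3′ on the strand of the clock gene from mm10. Capitals mark the D-box (TTATGTAA or TTACGTAA, either strand, so that TTATGTAA also appears as TTACATAA) and the E-box CACGTG. The peaks with a D-box near their midpoint are shown whole, and for the others a stretch around the motif is shown. 
Nr1d1 intron, chr11:98773983-98774189, minus strand: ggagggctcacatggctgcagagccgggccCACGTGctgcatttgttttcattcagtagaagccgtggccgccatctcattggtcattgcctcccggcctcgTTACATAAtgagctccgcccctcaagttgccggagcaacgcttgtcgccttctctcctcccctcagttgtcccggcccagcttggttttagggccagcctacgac
Nr1d1 window, Thra intron, chr11:98755082-98755264, minus strand: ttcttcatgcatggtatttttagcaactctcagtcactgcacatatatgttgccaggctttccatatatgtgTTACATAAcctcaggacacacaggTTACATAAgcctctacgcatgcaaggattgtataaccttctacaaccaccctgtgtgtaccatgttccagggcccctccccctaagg
Nr1d2 intron, chr14:18238513-18238693, minus strand: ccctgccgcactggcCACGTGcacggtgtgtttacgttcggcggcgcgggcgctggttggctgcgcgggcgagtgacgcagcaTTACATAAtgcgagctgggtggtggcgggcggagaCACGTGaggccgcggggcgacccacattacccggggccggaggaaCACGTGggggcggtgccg
Per2 upstream of the start, chr1:91459412-91459479, minus strand: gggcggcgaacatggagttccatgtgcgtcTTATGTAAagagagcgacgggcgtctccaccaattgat
Per1 intron, chr11:69098753-69098818, plus strand: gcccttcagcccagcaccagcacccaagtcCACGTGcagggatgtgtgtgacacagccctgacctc
Bhlhe40 upstream of the start, chr6:108659413-108659478, plus strand: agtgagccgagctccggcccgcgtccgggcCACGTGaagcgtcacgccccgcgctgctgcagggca
Nr1d1 upstream of the start, chr11:98783512-98783577, minus strand: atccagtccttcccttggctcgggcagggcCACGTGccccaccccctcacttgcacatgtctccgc
Tef downstream of the start, chr15:81802534-81802563, plus strand: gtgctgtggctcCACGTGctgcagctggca

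In the Nr1d1 and Nr1d2 introns a D-box and at least 1 CACGTG shared a single HLF-HA peak. In the Nr1d1 intron the D-box lay 2 bp from the peak midpoint and the E-box 71 bp away. In Nr1d2 the D-box lay 4 bp from the midpoint, with 3 copies of CACGTG around it. Only 11 (0.417%) of the 2635 HLF-HA peaks in the genome held both motifs, and these are 2 of the 11.

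HLF-HA stood beside 15 other constructs that also had peaks at these genes, and all 16 had them at a larger share of the 10 genes than of all genes. For CDX2-HA, BHLHB8-HA, RHOX11-HA, DLX6-HA, DUXBL-HA and ZFP319-HA the excess was only 1.23- to 1.4-fold. Such counts are near the background share and are no result about the genes. The 8 constructs without a peak at these genes are left out of the 16. BHLHB8-HA and TEAD1-HA had a peak at 10 of 10 genes, against 80.9% and 55.5% of all genes. In the Per1, Per3, Cry2, Dbp and Nr1d1 windows, every TEAD1-HA peak was nearest to the start of a neighbouring gene. Over the genome, 39.1% of TEAD1-HA peaks lay within 1 kb of a gene start. BHLHB8 (MIST1) is a bHLH factor of secretory cells, and TEAD1 is the DNA-binding partner of YAP. EBF1-HA and DLX1-HA had peaks at 8 genes, against 26.5% and 46.5%. SOX2-HA had peaks at 7 genes, against 42%. ZFP319-HA and DUXBL-HA had peaks at 6 genes each, against 42.8% and 44.6%. CDX2-HA, DLX6-HA and FOXA1-HA had peaks at 5 genes each, against 40.7%, 38.1% and 17.5%. SIX6-HA, SOX15-HA and TOX3-HA, like MAX-HA, had peaks at 4 genes, against 17.5%, 13.7% and 6.33%, and RHOX11-HA at 3, against 23.7%.

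The share of the 10 genes exceeded that of all genes 6.33-fold for HLF-HA, 6.32-fold for TOX3-HA, 3.02-fold for EBF1-HA, 2.91-fold for SOX15-HA, 2.86-fold for FOXA1-HA and 2.75-fold for MAX-HA. These ratios rest on 4 to 8 genes each. Taken over all 24 constructs, 95 of the 240 pairs of gene and construct had a peak (39.6%), against 22.4% over all genes. To set HLF-HA and MAX-HA against genes with many constructs, the same counts were taken, after the data were examined, among genes with peaks of at least 8 other constructs. HLF-HA then had a peak at 5 of 7 clock genes, against 26.1% of 6010 genes, and MAX-HA at 3 of 6, against 39.1% of 5917 genes. Within the gene bodies alone, HLF-HA had a peak at 5 of the 10 genes and MAX-HA at 1. No share of all genes under that rule is given, so these counts are not set against a background.

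Peaks of 8 constructs fell in none of the windows. Over all genes these constructs had a peak at 10.4% (SOX2-YPET OCT4-HA), 2.3% (BRACHYURY-HA), 1.12% (NANOG-HA), 0.583% (FOXA1_RR-HA), 0.565% (FOXA1_SW-HA), 0.488% (OCT4-HA), 0.287% (PRR3-HA) and 0.269% (THAP4-HA) of genes. A count of 0 among 10 genes is close to each of these shares and is no result about the genes. Near gene starts their shares of all genes were 1.03%, 0.082%, 0.041% (NANOG-HA), 0.041% (FOXA1_RR-HA), 0.0501%, 0.0456%, 0.0228% and 0.0547% in the same order.

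**Figure D1:**
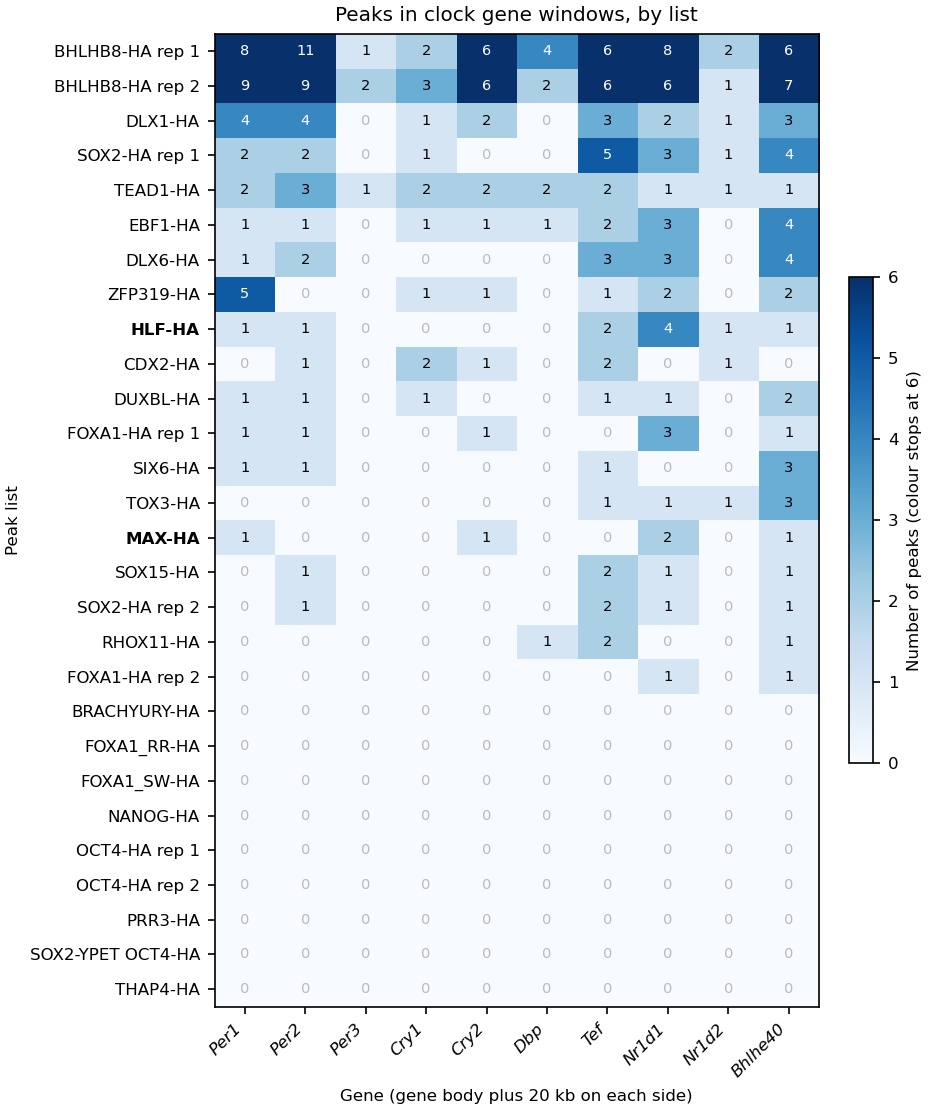
Number of peaks in the window of each clock gene (columns) in each of the 28 lists (rows), ordered by the total, with the colour stopping at 6. HLF-HA has peaks at 6 genes, 4 of them in the Nr1d1 window, MAX-HA at 4 genes, and the lists of 8 constructs have none.

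Near gene starts the order of the constructs changed. A peak was counted as near the start when it shared at least 1 bp with the 1 kb on either side of the most upstream annotated start of the gene. All 10 genes had such a peak of at least 1 construct, against 57.3% of all genes. HLF-HA had one at Per2, Tef, Nr1d2 and Bhlhe40, 4 of 10 genes, against 1.01% of all genes. MAX-HA had one at Per1 and Nr1d1, 2 of 10, against 1.86%. Among peaks of at least 300 bp, the counts were 2 for HLF-HA and 1 for MAX-HA, with no share of all genes given under that rule.

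The other constructs had start peaks at 0 to 9 genes. BHLHB8-HA had them at all but Per1 (9 of 10, against 43.8%), DLX1-HA at Per2, Cry1, Cry2 and Tef (4, against 11.7%), DLX6-HA at Per2, Tef and Nr1d1 (3, against 7.14%) and EBF1-HA at Dbp, Nr1d1 and Bhlhe40 (3, against 5.38%). TEAD1-HA, in contrast to its peaks at every window, had a start peak at 3 genes, Per2, Cry1 and Nr1d2, against 29.6%, a share near its background. FOXA1-HA had start peaks at Per1 and Nr1d1 (against 1.39%) and TOX3-HA at Nr1d2 and Bhlhe40 (against 2.04%). ZFP319-HA (against 5.83%), DUXBL-HA (against 3.6%), SOX2-HA (against 4.11%), SIX6-HA (against 2.22%) and SOX15-HA (against 0.588%) had 1 gene each. RHOX11-HA (against 10.5%) and CDX2-HA (against 1.9%) had none.

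**Figure D2:**
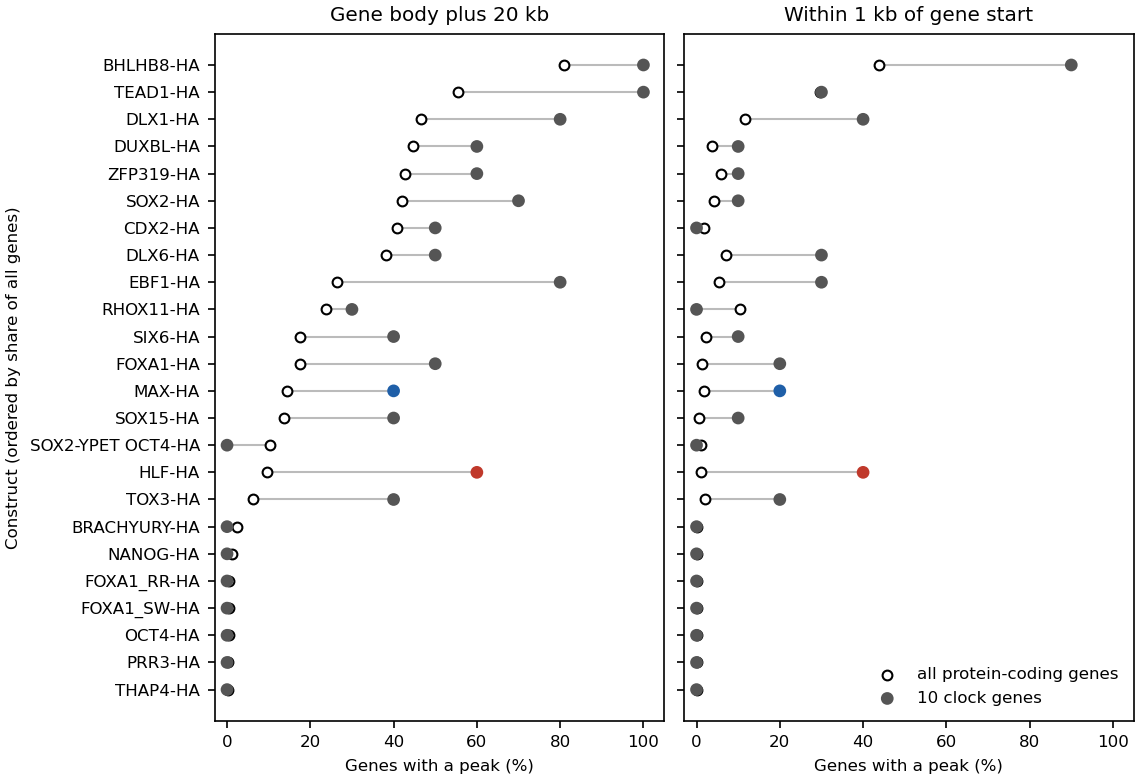
Percent of genes with a peak in the window (left) and within 1 kb of the gene start (right) for each of the 24 constructs, with open circles for all 21938 protein-coding genes and filled circles for the 10 clock genes. HLF-HA (red) stands at 60% against 9.48% on the left and at 40% against 1.01% on the right, and MAX-HA (blue) at 40% against 14.5% and 20% against 1.86%.

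The Per genes encode the PERIOD proteins, which with the cryptochromes form the repressor complex of the clock. Per1 (chromosome 11, 69095217 to 69109960, plus strand) had peaks of 12 constructs at 20 merged sites, where a site joins the touching peaks of all lists. At 36.5 sites per 100 kb its window was denser than those of 99.6% of genes, but it also holds the starts of 4 other genes, among them Vamp2 and Hes7. HLF-HA had 1 peak, at chr11:69098744-69099095, and no other construct had a peak there. Positions are given in bp from the most upstream GENCODE start to the peak midpoint, negative upstream. The HLF-HA peak lay at 3703 bp, but at -29 bp from a RefSeq start (69098949), and it held 1 CACGTG and no D-box.

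MAX-HA had 1 peak at Per1, at chr11:69094706-69094979, at -374 bp from the GENCODE start and -4106 bp from the RefSeq start. This was the only MAX-HA peak at a clock gene with a CACGTG, and it overlapped a FOXA1-HA peak. It is shown because the E-box (CACGTG, capitals) stands downstream of a forkhead sequence (GTAAACA, capitals, the reverse complement of TGTTTAC).
Per1, MAX-HA peak, chr11:69094706-69094979, plus strand: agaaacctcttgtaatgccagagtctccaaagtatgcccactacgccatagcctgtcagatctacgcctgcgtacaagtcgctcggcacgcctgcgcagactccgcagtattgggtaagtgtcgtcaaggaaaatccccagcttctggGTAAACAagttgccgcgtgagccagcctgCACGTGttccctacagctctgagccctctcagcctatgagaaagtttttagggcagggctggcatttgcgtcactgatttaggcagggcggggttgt
The Per1 site with the most constructs lay at -16208 bp, where BHLHB8-HA, DLX1-HA, DLX6-HA, EBF1-HA, SIX6-HA and SOX2-HA met. Its nearest gene start was that of Tmem107, 8203 bp away. ZFP319-HA had 5 of its 12 peaks at clock genes in the Per1 window, 1 of them at 674 bp.

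Per2 (chromosome 1, 91415982 to 91459324, minus strand) had peaks of 12 constructs at 15 sites. Its HLF-HA peak, at chr1:91459113-91459508, was centred 13 bp from the gene start, and its D-box lay at -122 bp. A TEAD1-HA peak covered the same D-box. A second D-box, TTACGTAA at 225 bp downstream, lay under BHLHB8-HA and TEAD1-HA peaks but not under the HLF-HA peak. All these peaks belonged to a site of 5 constructs, BHLHB8-HA, DLX1-HA, DLX6-HA, HLF-HA and TEAD1-HA, that ran across the start. A neighbouring site centred at -1412 bp also had 5 constructs, of which BHLHB8-HA was the only one in common, the others being FOXA1-HA, SIX6-HA, SOX15-HA and SOX2-HA.

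Per3 (chromosome 4, 151003652 to 151044665, minus strand) had the fewest, with 2 constructs, BHLHB8-HA and TEAD1-HA, at 3 sites in 81 kb. BHLHB8-HA had 1 peak in replicate 1 and 2 in replicate 2. TEAD1-HA had 1, centred 315 bp from the start of the neighbouring gene Vamp3. A BHLHB8-HA site 247 bp downstream of the Per3 start was the only peak near that start. Yet the Per3 window held 9 D-boxes and 18 CACGTG, and none of the 9 D-boxes lay in a peak of any construct. The pair at -155 and -202 bp is shown, with the D-boxes in capitals, for comparison with the D-box of Per2 that lay under a peak.
Per3 upstream of the start, chr4:151044801-151044885, minus strand: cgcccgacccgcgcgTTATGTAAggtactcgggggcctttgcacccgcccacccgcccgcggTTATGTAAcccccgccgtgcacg

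The cryptochromes CRY1 and CRY2 are the partners of the PERIOD proteins and the stronger repressors of CLOCK and BMAL1. Cry1 (chromosome 10, 85131700 to 85185064, minus strand) and Cry2 (chromosome 2, 92403646 to 92434043, minus strand) had peaks of 8 constructs each, more than 71.9% of genes, and neither had a peak of HLF-HA. They shared BHLHB8-HA, CDX2-HA, DLX1-HA, EBF1-HA, TEAD1-HA and ZFP319-HA. Cry1 had 9 sites and Cry2 had 15, or 9.64 and 21.3 per 100 kb. At the Cry1 start a site of 3 constructs (BHLHB8-HA, DLX1-HA and TEAD1-HA) was centred 167 bp downstream. At Cry2 the MAX-HA peak, chr2:92432398-92432863 in an intron 1412 bp downstream of the start, met a FOXA1-HA peak and held neither CACGTG nor a forkhead sequence.

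DBP and TEF belong, with HLF itself, to the PAR-bZIP family. Dbp (chromosome 7, 45705088 to 45710203, plus strand) had peaks of 4 constructs: BHLHB8-HA, EBF1-HA, RHOX11-HA and TEAD1-HA. BHLHB8-HA had 4 peaks there in replicate 1 and 2 in replicate 2, TEAD1-HA had 2, and EBF1-HA and RHOX11-HA had 1 each. The window is crowded, with the starts of 6 other genes, and the RHOX11-HA peak lay 13 bp from the start of Sphk2. Dbp itself had an EBF1-HA peak 218 bp downstream of its start, in a site shared with BHLHB8-HA. Its window held 12 CACGTG and 1 D-box, and no HLF-HA or MAX-HA peak.

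Tef (chromosome 15, 81802421 to 81826863, plus strand) had peaks of 14 constructs, more than 96.6% of genes, at 12 sites, and no other gene start lay in its window. HLF-HA had 2 peaks. The peak chr15:81802453-81802633 lay just downstream of the most upstream GENCODE start, centred at 122 bp, but at -130 bp from a RefSeq start (81802673). It held a CACGTG 6 bp from its midpoint and no D-box. The peak chr15:81810115-81810365, in an intron 7819 bp downstream, held neither motif. The latter belonged to the site with the most constructs at any of the 10 genes, chr15:81809664-81811749, where 11 constructs met. This site ran over a downstream RefSeq start of Tef at 81811414, and was the only site here with 10 or more constructs.

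Nr1d1 and Nr1d2 encode the REV-ERB receptors, which repress Bmal1 and other genes through ROR elements. Nr1d1 (chromosome 11, 98767932 to 98775333, minus strand) had peaks of 13 constructs at 13 sites in 47.4 kb, and a density of 27.4 per 100 kb that was above that of 98.4% of genes. HLF-HA had 4 peaks there, more than at any other of the 10 genes. From upstream to downstream they lay at -13610, -8254, 1247 and 20160 bp. The peak at 1247 bp is the intronic one with a D-box and a CACGTG, shared with BHLHB8-HA. The farthest, in an intron of the neighbouring receptor gene Thra, held the 2 D-boxes printed above and met no peak of another construct.

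The upstream HLF-HA peaks differed from those 2. The peak chr11:98783419-98783754 held a CACGTG, no D-box, and lay in a site of 7 constructs, with BHLHB8-HA, DLX1-HA, DLX6-HA, FOXA1-HA, SOX2-HA and TOX3-HA. The peak chr11:98788839-98789047 held neither motif, and its nearest gene start was that of Msl1. At the start itself, 8 constructs met in a site centred at -407 bp, chr11:98775269-98776210, and HLF-HA was not among them. MAX-HA was, with a peak centred at -572 bp that held an AP-1 sequence (TGAGTCA on either strand) and no CACGTG, together with BHLHB8-HA, DLX6-HA, DUXBL-HA, EBF1-HA, FOXA1-HA, SOX15-HA and SOX2-HA. Its other peak in the window, chr11:98750811-98751057, lay in a Thra intron 24399 bp downstream with a forkhead sequence. The 2 SOX2-HA lists and the 2 FOXA1-HA lists all had a peak at the Nr1d1 start site.

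**Figure D3:**
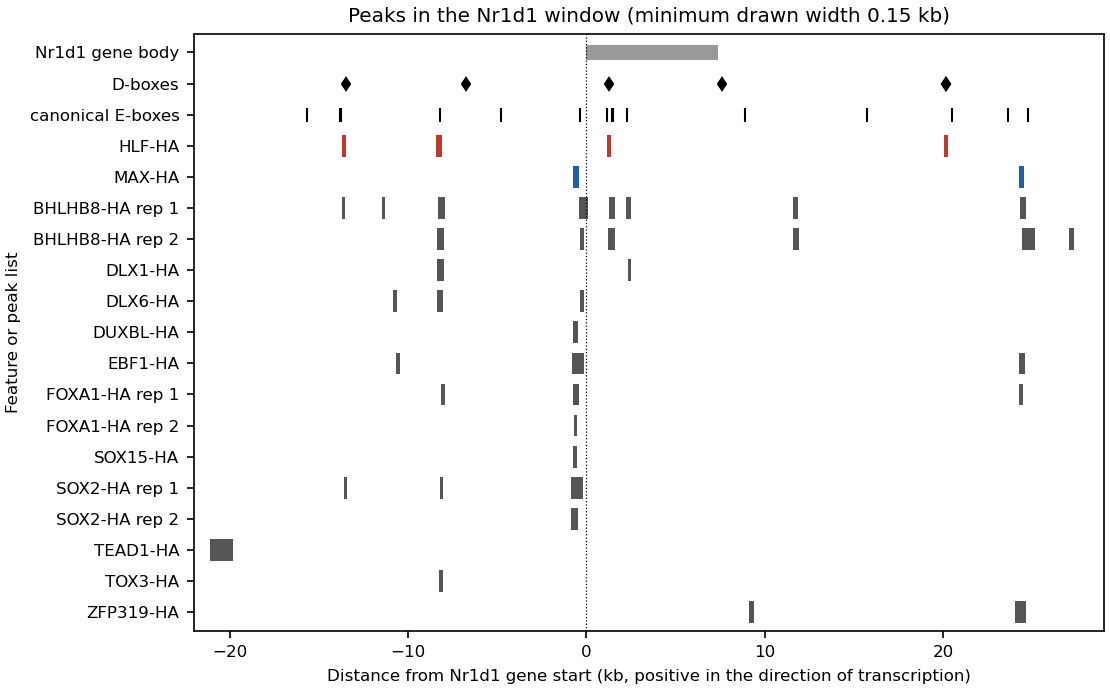
Peaks in the Nr1d1 window by list, with the gene body, the D-boxes (diamonds) and the CACGTG E-boxes (ticks) on top, against the distance from the gene start in kb, positive in the direction of transcription. Of the 4 HLF-HA peaks (red), that at 1247 bp lies on a D-box and that at 20160 bp on a pair of D-boxes, while the 8 constructs at the start include MAX-HA (blue) and not HLF-HA.

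Nr1d2 (chromosome 14, 18204054 to 18239127, minus strand) was sparser, with peaks of 7 constructs at 3 sites, or 4 sites per 100 kb, a density above that of 25.2% of genes. Of these, 1 site ran across the start with 5 constructs, BHLHB8-HA, DLX1-HA, HLF-HA, TEAD1-HA and TOX3-HA. The HLF-HA peak was centred 524 bp downstream of the start, and a TEAD1-HA peak covered its D-box and its 3 E-boxes. A second D-box, TTACGTAA at 1018 bp downstream, lay under BHLHB8-HA alone. The remaining 7 of the 9 D-boxes in the window lay in no peak.

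Bhlhe40 encodes DEC1, a bHLH repressor that competes for E-boxes. It had peaks of 15 constructs, the most of the 10 genes and more than 98% of genes, at 12 sites in 46.3 kb (chromosome 6, 108660629 to 108666925, plus strand). All 12 sites had Bhlhe40 as the nearest gene start. Its HLF-HA peak, chr6:108659346-108659668, was centred at -1122 bp, held a CACGTG and no D-box, and met BHLHB8-HA, EBF1-HA and TOX3-HA. The MAX-HA peak, chr6:108668323-108668690, lay 7878 bp downstream, beyond the gene's end, in a site of 8 constructs, and held none of CACGTG, the AP-1 sequence and the forkhead sequence. Another site of 8 constructs was centred 16201 bp downstream. TOX3-HA, with 1286 peaks in the genome, had 3 of its 6 clock gene peaks in the Bhlhe40 window.

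**Figure D4:**
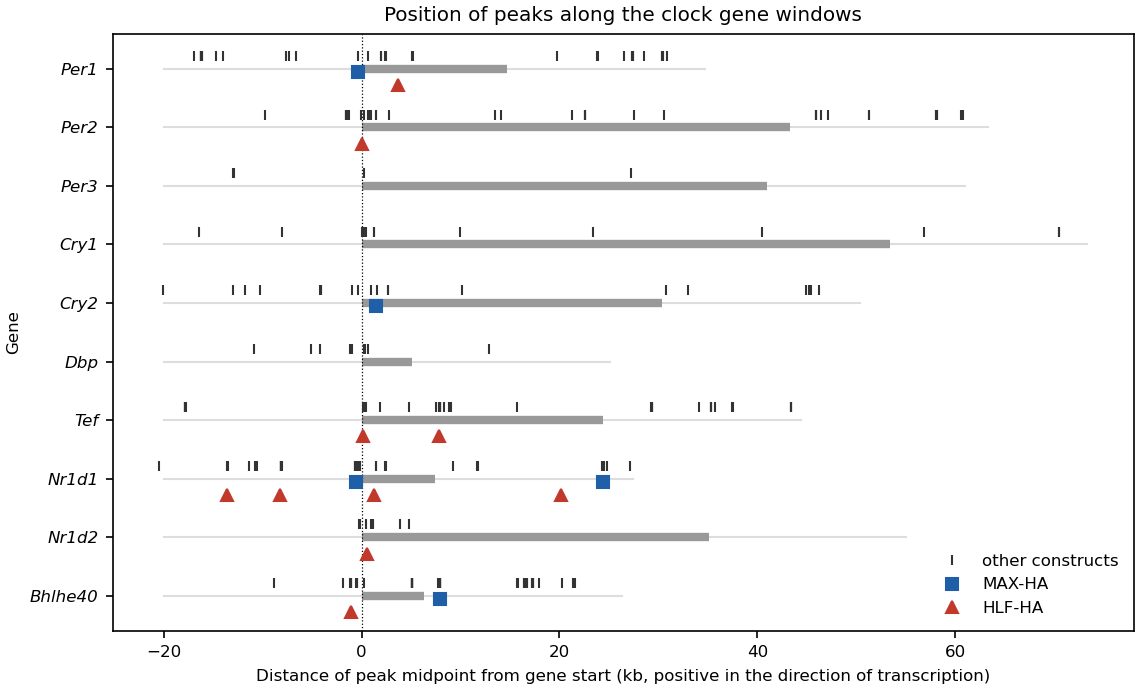
Midpoints of all peaks along the window of each clock gene, in kb from the gene start, with the gene body as a thick bar, HLF-HA as red triangles, MAX-HA as blue squares and the other constructs as ticks. HLF-HA peaks stand within 1 kb of the start at Per2, Tef and Nr1d2 by their midpoints and just outside it at Bhlhe40 and Nr1d1, and no gene has HLF-HA and MAX-HA on the same site.

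The 10 genes thus ran in the order Bhlhe40 (15 constructs), Tef (14), Nr1d1 (13), Per1 and Per2 (12 each), Cry1 and Cry2 (8 each), Nr1d2 (7), Dbp (4) and Per3 (2). The median was 10, against 5 over all genes (quartiles 2 and 8). The windows of the 10 genes were also longer, with a median of 67.4 kb against 57.4 kb, but their median density of 18.3 sites per 100 kb was above that of all genes too, 8.81. Neighbours in this order differed by 1 to 4 constructs, and dropping replicate 1 of the duplicated constructs lowered the number by 1 to 2 at Per1 (to 10), Per2 (to 11), Cry1 (to 7), Cry2 (to 7) and Nr1d2 (to 6), so that the order within these steps is not fixed.

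The duplicates show how far single lists can be relied on. The BHLHB8-HA lists had 54 and 51 peaks in the 10 windows, of which 35 and 32 were met by a peak of the other list, against 53.3% and 39.2% of all their peaks. Both found all 10 genes, against 67.9% and 78.8% of all genes. The SOX2-HA lists had 18 and 5 peaks, at 7 and 4 genes, against 41.5% and 16% of all genes. All 5 SOX2-HA peaks of replicate 2 were in replicate 1. The FOXA1-HA lists had 7 and 2 peaks, at 5 and 2 genes, against 17% and 3.89% of all genes. Both FOXA1-HA peaks of replicate 2 were in replicate 1. In the SOX2-HA and FOXA1-HA pairs the list with fewer peaks in the genome was contained, at the clock genes, in the longer one, and a gene without a peak in a single short list is therefore not shown to be unbound.

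In all, 263 peaks of all lists formed 108 sites in the 10 windows. A single construct was found at 67 sites (62%), against 76.3% of the 168506 sites of the genome, and 5 or more constructs at 11 (10.2%), against 5.6%. BHLHB8-HA was at 69 of the 108 sites and alone at 34 of them. The nearest gene start was that of the clock gene itself at 60 sites and that of a neighbour at the others.

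Overlaps of the HLF-HA and MAX-HA peaks with other constructs were counted over 10 and 5 peaks, and the difference between the constructs was not tested. All 5 MAX-HA peaks were met by FOXA1-HA, against 54.3% of the 3836 MAX-HA peaks, and 3 by EBF1-HA, against 14.5%. The FOXA1-HA lists were joined for this count. FOXA1-HA replicate 2 met the MAX-HA peaks at the Nr1d1 start and Bhlhe40. Those at Per1, Cry2 and in Thra were met by replicate 1 alone. BHLHB8-HA met 3 of the 5, against 60.2%, and DLX6-HA and SOX2-HA met 1 each, against 51.3% and 55.3%. Of the 10 HLF-HA peaks, 7 were met by BHLHB8-HA, against 70.3% of the 2635, but 3 each by DLX6-HA and SOX2-HA, against 54.9% and 55.7%. TEAD1-HA met 2, at Per2 and Nr1d2, against 2.43%. MAX-HA met none, against 12.7%, and 2 peaks, at Per1 and in Thra, were met by no other construct, against 12.8%.

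The sequences under the peaks were counted on both strands and set beside all peaks of the same construct. A D-box was in 4 of the 10 HLF-HA peaks, against 8.84% of all, and a CACGTG in 6, against 4.4%, with 2 peaks holding both and 2 holding neither. The AP-1 sequence was in 0 of the 10, against 27.4% of all HLF-HA peaks. CAGCTG and the forkhead sequence TGTTTAC were in 1 each, against 16.4% and 5.12%. The 10 peaks and all HLF-HA peaks were not matched for position. Peak midpoints lay within 1 kb of the gene start at Per2, Tef and Nr1d2, and for 7.1% of all HLF-HA peaks. The part of position in these shares was not tested. Peaks of other constructs in these windows also held CACGTG more often than all their peaks. The shares were 18.6% against 7.12% for BHLHB8-HA, 16.7% against 4.35% for SOX2-HA and 14.3% against 4.16% for FOXA1-HA. For the D-box they were 5.71% against 1.25%, 5.56% against 2.36% and 0% against 2.09% in the same order. Of the 5 MAX-HA peaks, 1 held CACGTG, against 4.3%, 2 the forkhead sequence, against 29%, 1 the AP-1 sequence, against 29.7%, and none a D-box, against 4.48%. The share of all MAX-HA peaks with CACGTG was close to that of all FOXA1-HA peaks (4.16%) and all SOX2-HA peaks (4.35%). The forkhead sequence was in 27.6% of all FOXA1-HA peaks and 7.91% of all SOX2-HA peaks.

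**Figure D5:**
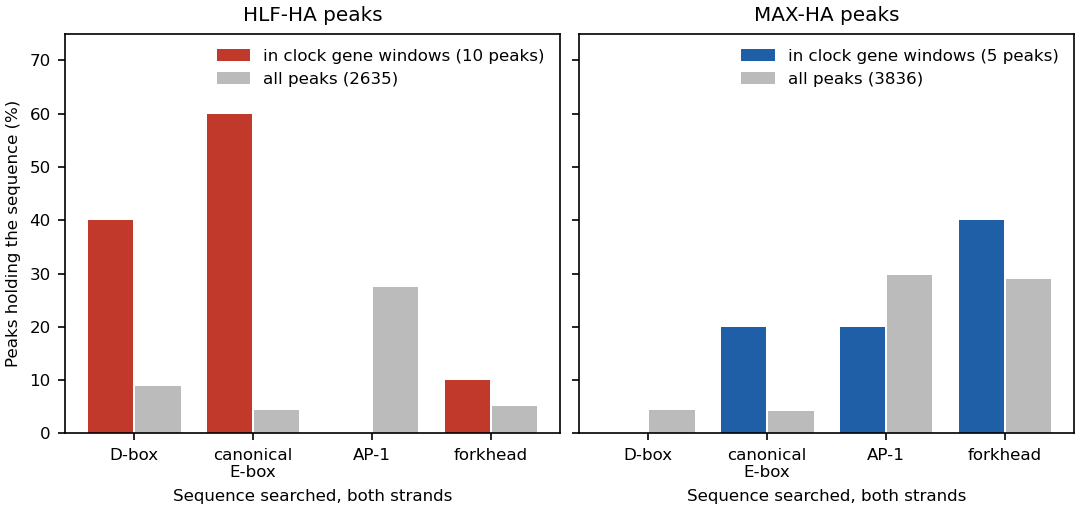
Percent of peaks that hold each sequence, for HLF-HA (left) and MAX-HA (right), with coloured bars for the peaks in the clock gene windows (10 and 5) and grey bars for all peaks (2635 and 3836). HLF-HA peaks at clock genes stand above all HLF-HA peaks for the D-box (40% against 8.84%) and CACGTG (60% against 4.4%) and at 0 for AP-1. The sets were not matched for distance to a gene start.

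Counted from the sequence side, the windows held 47 D-boxes, at least 1 at each of the 10 genes. Of these, 5 lay in an HLF-HA peak (10.6%), against 0.232% of the 76736 D-boxes in the windows of all genes, and 5 others lay only in peaks of other constructs. The D-boxes in HLF-HA peaks came from few genes, with 3 at Nr1d1, where a pair shared a peak, and 1 each at Per2 and Nr1d2. The windows held 117 CACGTG, of which 30 lay in a peak of any construct, 18 in a BHLHB8-HA peak, 8 in an HLF-HA peak (6.84%, against 0.057% of 168495) and 1 in a MAX-HA peak (0.855%, against 0.0819%). Over all genes, 96 CACGTG lay in HLF-HA peaks, and 8 of the 96 were at these genes. Of the 8, 3 shared a peak at Nr1d2, 2 were at Nr1d1 and 1 each at Per1, Tef and Bhlhe40. Most copies of either sequence therefore lay outside all peaks.

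Over all 108 sites, 7 held a D-box (6.48%), against 1.78% of the 115083 sites in the windows of all genes, and 20 held CACGTG (18.5%), against 6.5%. CAGCTG was in 38%, against 33.2%, the AP-1 sequence in 17.6%, against 15.9%, the ROR element TAGGTCA in 6.48%, against 3.59%, the SOX sequence AACAATG in 8.33%, against 6.9%, the forkhead sequence in 6.48%, against 5.99%, and the cAMP response element TGACGTCA in 2.78%, against 0.621%. The RefSeq promoters (250 bases before to 50 after the start) covered 8 of the 10 genes, all but Per2 and Bhlhe40. A D-box was in that of Per3, against 1.06% of 32851 promoters, and CACGTG in those of Per1, Cry1 and Tef, against 7.15%. Per2, which was not covered, had a D-box at -122 bp from its GENCODE start. A match is a matter of letters, and these counts do not say that a factor contacts it.

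Of 18 other clock genes, HLF-HA had peaks at 4, against 9.48% of all genes, and none of these had a MAX-HA peak. The HLF-HA genes were Nfil3, which encodes the repressor of D-boxes, Ciart, which encodes the repressor CHRONO, Hlf itself and Fbxl21. At Nfil3 the peak was centred 474 bp downstream of the start, in an intron, and at Ciart at -589 bp, and each held a D-box. Hlf had 4 intronic peaks, 14238 to 48409 bp downstream, of which none held a D-box and 1 held CACGTG. The Fbxl21 peak lay 26999 bp downstream, nearest to the start of Lect2. MAX-HA had peaks at 4 of the 18, against 14.5% of all genes. Among them were a peak at Clock (1841 bp downstream), with a forkhead sequence and no CACGTG, and peaks far inside Rora and Rorb. BHLHB8-HA had peaks at all 18, against 80.9% of all genes, DLX1-HA at 17, against 46.5%, DLX6-HA at 13, against 38.1%, and TEAD1-HA at 13, against 55.5%. TOX3-HA had peaks at 0 of the 18, close to its share of 6.33%. The median was 8 constructs for these 18 genes.

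Likeness between genes was measured as the Jaccard index of their sets of constructs, the number shared over the number at either gene, out of 24. Among the 10 genes, Nr1d1 and Bhlhe40 were most alike, with 13 of 15 constructs in common (0.867), followed by Tef and Bhlhe40 (0.812) and Per1 and Bhlhe40 (0.8). Outside the list, Adcy7 had the same 14 constructs as Tef, Ralgds and Slc41a2 the same 13 as Nr1d1, and Anxa9 and Arhgap22, with others, the same 15 as Bhlhe40. 9130401M01Rik and Btaf1 had the same 8 as Cry1. The nearest to Per1 were 1600014C23Rik and Cep295nl, and to Per2 Bmp6 and Cblb, each at 0.923. For Cry2 these were Atg16l2 and Dazap2 (0.875), and for Nr1d2 Hivep1 and Seh1l (0.857). Ties were frequent, with 18 genes at the highest index for Per2 and 17 for Per1, so these names are examples.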

How the data were processed

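ChIP-seq peaks were available for 28 of the 29 samples, grouped and numbered by their labels. Per the study's methods, the authors aligned paired-end reads to mm10 with STAR 2.5.3a, removed duplicates with Picard, called peaks per sample with MACS2 2.1.1.20160309, and dropped those on input peaks or the ENCODE blacklist. The deposited files list only positions (chromosome, start, end), with no score, count or other measure. Replicates were called separately.

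Genes were taken from GENCODE vM21 (protein-coding, autosomes, X and Y), and sequence and promoters from RefSeq GRCm38.p6. A peak was assigned to a gene when it shared at least 1 bp with the gene body plus 20 kb on either side. Lists of the same construct were joined, and touching peaks of all constructs were merged into sites. Distances run from the most upstream annotated start to the peak midpoint. Motifs were searched on both strands. Python 3.11.15, NumPy 2.4.6 and Matplotlib 3.10.9 were used.

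The 10 genes, the 18 other clock genes and the motifs were chosen with earlier results of these data known. No test was therefore run on them. The main gene counts stand beside the share over all 21938 genes, and the counts under alternatives do not. Named were the 10 genes, other clock genes with an HLF-HA or MAX-HA peak (1 is not reported here), sites with such a peak, with the most constructs or near the start, with their nearest genes, and the 2 genes with the most alike constructs for genes with at least 5. Of ties, names first in the alphabet were taken. Tmem107, Vamp2, Hes7, Thra, Sphk2 and other details were named after their values were seen. On simulated peaks in the windows of 200 genes, all 200 were found among 21938, and 582 of 582 planted D-boxes were found.

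Alternatives were other windows (0, 10 and 50 kb), the peak midpoint, peaks of at least 300 bp, sites of under 10 constructs, other start distances (500 bp and 5 kb), any transcript start, the central 200 bp for motifs, a wider D-box, and leaving out replicates.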

Additional observations from a re-analysis of the deposited data

How the results depend on the processing

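The HLF-HA count of 6 genes was 5 in the gene body alone, 6 with 10 or 50 kb and 4 with peaks of at least 300 bp only, and the MAX-HA count of 4 was 1 in the gene body alone, 5 with 50 kb and 3 with peaks of at least 300 bp. Gene bodies alone gave 51 pairs of gene and construct with a peak, a median of 5 constructs per gene and 38 sites, since the windows are then smaller. Sites numbered 71 with 10 kb and 185 with 50 kb on each side. Peaks of at least 300 bp gave 63 pairs, a median of 6 constructs, 69 sites, and start peaks of HLF-HA at 2 genes and of MAX-HA at 1. With any annotated transcript start, HLF-HA had start peaks at 5 genes and MAX-HA at 3. None of these alternative counts has a share of all genes under the same rule beside it. In the central 200 bp, 3 sites held a D-box in place of 7. Of 58 values under alternatives, 46 stayed within 1.5 times the value reported. Leaving out replicate 1 or replicate 2 of the 4 duplicated constructs gave 89 to 95 pairs, a median of 8.5 to 10 constructs, 93 to 99 sites and 9 to 10 genes with a start peak. Leaving out BHLHB8-HA, an alternative chosen after seeing the data, gave 85 pairs, a median of 9 and 79 sites. No paired analysis was possible because the results come from no test and the constructs compared have 1 list in most cases. Depth is unknown, so a short list can miss sites, and the windows of neighbouring genes overlap those of the clock genes.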
